A study of Xenopus laevis with 16 samples.

Results

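The genes described here were grouped as genes of the motile cilium of Xenopus laevis. They are the axonemal dynein heavy, intermediate and light chains (dnah, dnai, dnal and dnali1), the dynein assembly factors (dnaaf), the radial spoke genes (rsph), the tektins (tekt), tcte1 and lrrc34. They were picked by a pattern of gene names in the deposited tables, with the suffix L or S that marks the homeologous copies of this allotetraploid frog. The names matched 42 of 45038 rows, or 34 gene names on 15 chromosomes and scaffolds, and 8 names had both an L and an S row. Of the 42 rows, 39 had enough reads to be tested, among 30384 tested genes.

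Motile cilia beat because dynein motors, fixed in outer and inner rows along the microtubule doublets of the axoneme, slide the doublets past each other. Radial spokes and the nexin-dynein regulatory complex control which motors are active, tektins run as filaments along the doublets, and the assembly factors fold dynein complexes in the cytoplasm before they enter the cilium. In Xenopus, the embryonic epidermis carries multiciliated cells among goblet cells, ionocytes and small secretory cells, and isolated ectoderm forms this epidermis. The roles given below are those known from human, mouse and Chlamydomonas.

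RNA was measured in animal caps, the ectoderm cut from the blastula. Embryos had been injected at the 2-cell stage, into the animal pole of each cell, with 20 pg of an mRNA for 1 of 3 proteins: GR-neurog2, ptf1a-GR, or the form of the latter with changed tryptophans, ptf1aW224A/W242A-GR, which is called the mutant below. Ptf1a and Neurog2 are bHLH transcription factors, and the GR domain fused to each makes its activity depend on dexamethasone. Caps of every group, controls included, were cultured in 0.8X MBS buffer with dexamethasone for 6 h or 25 h, per the labels, and it is not made plain which injection, if any, the control caps (CC) had received. Each of the 3 mRNAs and the control had 2 libraries at each time, 16 in all in 8 groups. The labels do not state whether the libraries of a group came from separate batches of embryos, so p-values measure the spread between these libraries, which may be technical.

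In units of 1e6, the libraries held 31.4 to 228.3 counts, with a median of 63.5. The 42 genes took 0.0420 to 0.0597% of the counts at 6 h. At 25 h they took 0.226 and 0.263% in the control caps and 0.0736 and 0.0564% in the Ptf1a caps. Levels are TMM-scaled counts per 1e6 counts (CPM), given for replicate 1 and then replicate 2 of a group. Differences are log2 fold changes with their standard error (SE) from an edgeR quasi-likelihood test, and a gene is called higher or lower when its p, adjusted by Benjamini-Hochberg over all tested genes, is under 0.05. Markers of goblet cells and epidermis, keratins included, summed to between 53410 and 128200 CPM at 25 h, so epidermal RNA was abundant in every group.

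**Figure D1:**
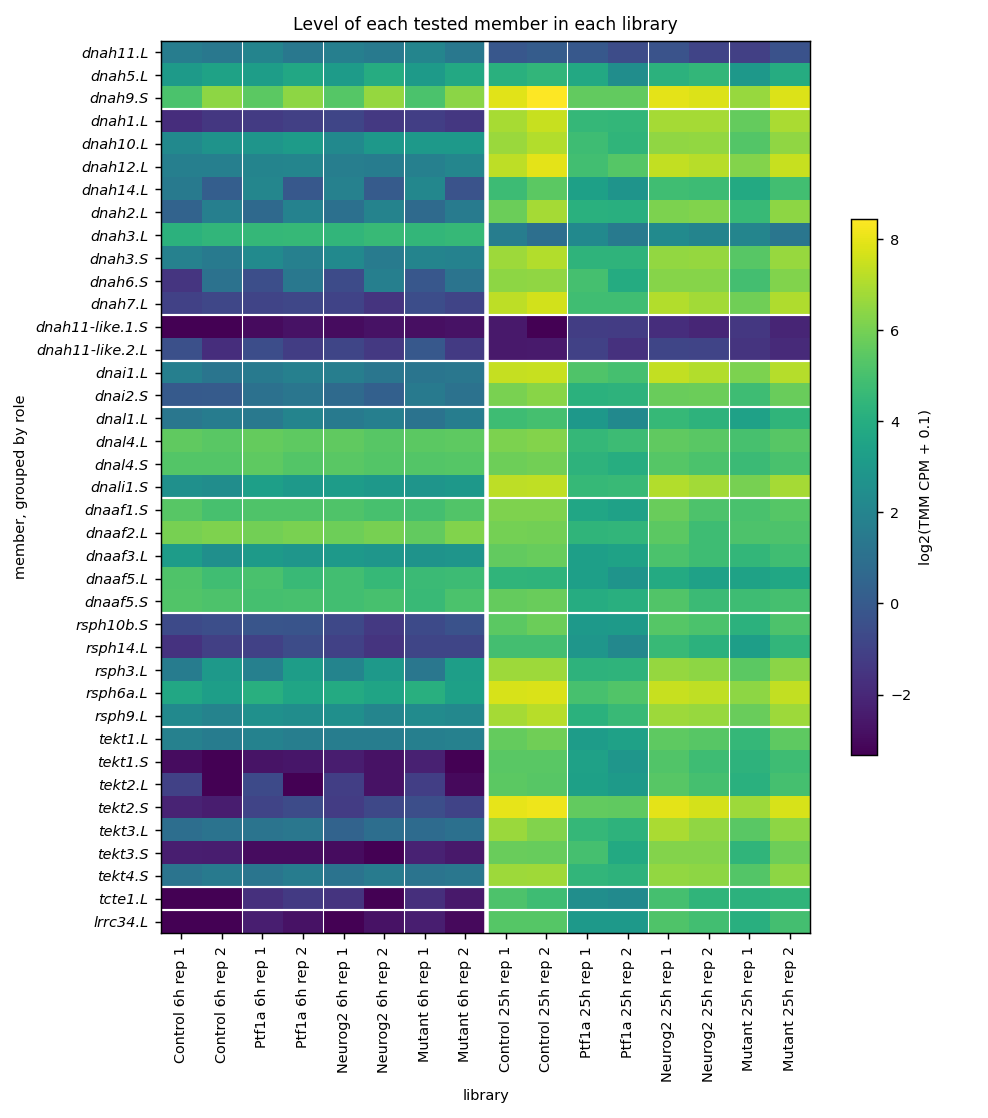
Level of the 39 tested genes in each of the 16 libraries, as log2 of TMM-scaled CPM plus 0.1, with genes in rows grouped by role and libraries in columns (6 h left, 25 h right). Most rows are dark at 6 h and bright at 25 h, and at 25 h the 2 Ptf1a columns and, less so, mutant replicate 1 are darker than the control columns.

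The control caps give the course of these genes in the caps labelled as controls, whose injection, if any, is not made plain. From 6 h to 25 h, 32 of the 39 tested genes rose and 4 fell, where 28.9% of all tested genes rose and 30.4% fell. The median log2 fold change of the 39 was 4.81, against -0.14 over all genes. Bulk RNA cannot tell more cells of a type from more RNA per cell, and this holds for every difference below.

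The tektins rose the most as a group, and all 7 were called higher. In the control caps at 6 h, tekt1.S, tekt2.L, tekt2.S and tekt3.S were below 1 CPM. At that time tekt1.L, tekt3.L and tekt4.S lay between 1 and 10 CPM. The summed level of the 7 tektins was 8.05 and 8.02 CPM at 6 h and 657.0 and 656.7 CPM at 25 h in the control caps. tekt2.S (chromosome 2S, 65988278 to 65997487, minus strand, genome build 9.1 as are all coordinates here) was at 0.129 and 0.0933 CPM at 6 h and at 259 and 278 CPM at 25 h, a log2 fold change of 11.19 ± 0.474 (SE, n = 2 and 2, adjusted p = 6.67e-09 by edgeR). tekt1.S had 2 reads and 0 reads at 6 h and 42.9 CPM in each library at 25 h. The ratio of its pooled counts was 2254, with a 95% interval of 623.4 to 18620 that covers counting error only, since reads carried no molecular identifiers. tekt3.S rose by a log2 fold change of 9.11 ± 0.677.

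The inner arm heavy chains, the motors that shape the beat, followed in 8 of 9 rows. dnah1.L (4L, 121992951 to 122080087, minus strand) was at 0.193 and 0.280 CPM at 6 h and at 121 and 177 CPM at 25 h, and its log2 fold change was 9.32 ± 0.512 (adjusted p = 3.95e-08 by edgeR). Its gene model shares exon sequence with bap1.L, and so does that of dnah7.L with slc39a10.L, so some reads of these models may belong to the neighbour. dnah7.L rose by 8.69 ± 0.457. dnah12.L, the inner arm chain with the highest level (Scaffold24, 46783 to 144680, plus strand), went from 3.25 and 3.26 CPM to 155 and 247 CPM. The exception was dnah3.L, which fell by 3.03 ± 0.356 on the log2 scale and is described with its S copy further on.

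Both intermediate chains, all 5 radial spoke genes and all 4 tested light chains rose as well. The intermediate chains anchor the outer arm motor, and dnai1.L (1L, 219134790 to 219175788, minus strand) rose from 3.28 and 2.29 CPM to 168 and 174 CPM. rsph6a.L, a spoke head gene and the spoke row with the most reads (8L, 49828986 to 49835607, plus strand), rose from 13.1 and 9.68 CPM to 211 and 217 CPM. dnali1.S, the light intermediate chain of the inner arm (2S, 68997270 to 69011565, plus strand), rose from 5.91 and 5.27 CPM to 153 and 160 CPM. In each of these 3 genes, the libraries of the 2 times were far apart.

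tcte1.L and lrrc34.L had no read in either control library at 6 h. tcte1, a subunit of the nexin-dynein regulatory complex (5L, 23003977 to 23009996, plus strand), stood at 35.3 and 27.8 CPM at 25 h. lrrc34, which codes for a leucine-rich repeat protein (5L, 108720164 to 108735171, plus strand), stood at 39.8 and 40.5 CPM. Both were called higher, with adjusted p of 2.56e-06 and 3.55e-07 by edgeR.

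Some of these genes were already present at 6 h. Among the 39, 9 were above 10 CPM in the control caps at 6 h, 17 lay between 1 and 10 CPM and 13 were below 1 CPM. The 9 were 4 of the 5 assembly factors, both copies of dnal4, dnah3.L, dnah9.S and rsph6a.L. By 25 h rsph6a.L and dnah9.S had risen, the latter by 2.28 ± 0.602 on the log2 scale, and dnah3.L had fallen. dnaaf2.L (Ktu in other species, 8L, 69457510 to 69463024, plus strand) was at 65.1 and 71.1 CPM at 6 h and 62.7 and 61.3 CPM at 25 h, and was not called (log2 fold change -0.13 ± 0.233, adjusted p = 0.638 by edgeR). dnaaf1.S, a leucine-rich repeat assembly factor (4S, 32441957 to 32461914, minus strand), rose from 41.3 and 32.6 CPM to 71.6 and 71.7 CPM, by 0.95 ± 0.221 on the log2 scale. The summed assembly factors went from 190 and 173 CPM to 253 and 258 CPM.

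The 4 genes that fell in the control caps were dnah3.L, dnah11.L (-1.65 ± 0.471), dnaaf5.L (-0.69 ± 0.253) and dnah11-like.2.L (-2.42 ± 0.857). dnah11 codes for an outer arm heavy chain, and dnah11.L shares exon sequence with cdca7l.L, as dnaaf5.L does with an unnamed gene model. dnah11-like.2.L had only 4 and 2 reads at 25 h. The count of 4 depended on single libraries: it was 2 without the 6 h control replicate 1, 1 without the 25 h control replicate 1 and 2 without the 25 h control replicate 2. Small changes over time also depended on the scaling. With total-count scaling the median of all genes moved from -0.14 to -0.99, and the signs of dnal4.L, dnal4.S and dnaaf5.S turned to -0.16, -0.25 and -0.38, while the median of the 39 genes was 4.10. Of the 36 genes called over time, 30 were called without each library in turn, and the block within each time added dnah5.L (1.30, adjusted p = 0.0253) and dnaaf5.S (0.55, adjusted p = 0.0348) to those that rose.

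Levels per kilobase of exon allow a rough comparison between genes. They rest on annotated exon lengths, and 7 of the 42 models have no annotated untranslated region. dnal4.L and dnal4.S had 910 and 3492 annotated exon bases. Their levels in the control caps at 25 h, 80.1 and 17.1 CPM per kb, thus depend in part on the annotation. In the control caps at 25 h dnali1.S led with 180.8 ± 5.93 CPM per kb (SD, n = 2), followed by tekt2.S with 150.4 ± 7.29, rsph6a.L with 92.6 ± 1.87 and dnal4.L with 80.1 ± 4.26. These 4 differed from their neighbours in the order by more than 1 SD of each, whereas tekt4.S (71.0 ± 1.82) and dnai1.L (69.8 ± 1.69) next in line differed by less than their spread. The median per-kilobase level was 8.36 for the 9 inner arm heavy chains, 33.4 for the 7 tektins and 33.0 for the 5 radial spoke genes. Among heavy chains dnah9.S, a motor of the outer arm, was highest at 21.6 ± 5.75 per kb, and dnah5.L, its outer arm partner, stood at 1.38 ± 0.173.

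Ptf1a caps at 25 h had far less RNA of nearly all of these genes than control caps. Of the 39 tested genes, 30 were lower and 0 higher, where 8.62% of all tested genes were lower and 11.9% higher (20.5% either way). The median log2 fold change of the 39 was -2.29, against 0.08 over all genes. The called genes fell by 1.30 to 2.73 on the log2 scale, which left 15.1 to 40.8% of the control level. All 42 rows summed to 705 and 651 CPM in the Ptf1a caps and to 3095 and 3624 CPM in the control caps.

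**Figure D2:**
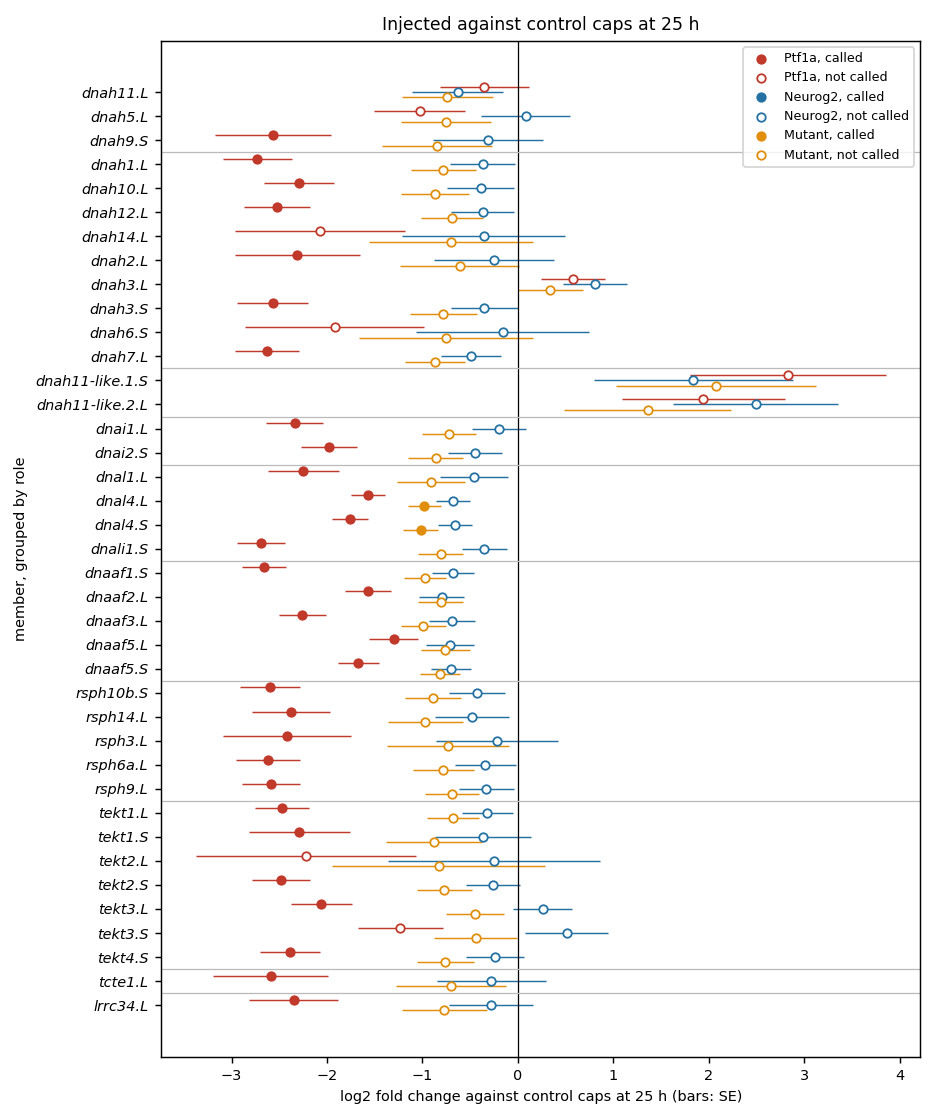
Log2 fold change against the control caps at 25 h, with SE, of each tested gene in caps with Ptf1a, Neurog2 or the mutant; filled symbols are called at an adjusted p under 0.05. The Ptf1a symbols of 30 genes lie filled between -2.73 and -1.30, while 0 of the Neurog2 symbols and 2 of the mutant symbols are filled.

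All 5 assembly factors were lower, with a median log2 fold change of -1.67. dnaaf1.S was at 12.3 and 10.4 CPM in the Ptf1a caps and at 71.6 and 71.7 CPM in the control caps, a log2 fold change of -2.66 ± 0.233 (adjusted p = 9.98e-05 by edgeR). dnaaf2.L was at 20.3 and 21.6 CPM against 62.7 and 61.3 CPM, a change of -1.57 ± 0.239. dnaaf5.L, a HEAT-repeat assembly factor whose model shares exon sequence with another gene model, changed least. The controls stood at 20.5 and 20.0 CPM and the Ptf1a caps at 9.73 and 6.73 CPM (-1.30 ± 0.257, adjusted p = 0.00417 by edgeR). No library of either group overlapped the other for these 5 genes. With 2 libraries a group this is weak evidence. Of the 39, 37 did not overlap between Ptf1a and control caps at 25 h, but neither did 18 at 6 h, where none was called. The share without overlap over all tested genes was not counted.

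The inner arm heavy chains were lower in 6 of 9 rows. dnah1.L had the lowest fold change of all 39 genes, with 22.9 and 22.1 CPM in the Ptf1a caps and 121 and 177 CPM in the controls (-2.73 ± 0.360, adjusted p = 0.00045 by edgeR). dnah7.L changed by -2.63 ± 0.334 and dnah12.L by -2.52 ± 0.345. dnah2.L, a motor of the 2-headed inner arm dynein, was lower at -2.31 ± 0.656 with an adjusted p of 0.0269, close to the threshold. dnah6.S and dnah14.L were not called, with -1.92 ± 0.938 (adjusted p = 0.180) and -2.07 ± 0.892 (adjusted p = 0.127).

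The outer arm was uneven. dnah9.S (9_10S, 36185649 to 36273219, plus strand) stood at 48.9 and 49.5 CPM in the Ptf1a caps and at 236 and 346 CPM in the controls, and its log2 fold change was -2.57 ± 0.608 (adjusted p = 0.0111 by edgeR). dnah5.L was at 13.8 and 5.26 CPM against 17.6 and 21.1 CPM, which was not called (-1.03 ± 0.473, adjusted p = 0.154). dnah11.L was below 1 CPM in all 25 h libraries and not called (-0.35 ± 0.467), and with total-count scaling its sign turned to 0.06. The outer arm intermediate chains dnai1.L (-2.34 ± 0.298) and dnai2.S (-1.98 ± 0.296) were both lower.

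All 4 tested light chains were lower. dnali1.S dropped to 23.6 and 25.0 CPM from 153 and 160 CPM in the controls, a log2 fold change of -2.69 ± 0.254 (adjusted p = 0.00012 by edgeR). The dnal4 copies, which code for a small light chain (4L, 113127257 to 113134466, minus strand, and 4S, 94096488 to 94111458, plus strand), changed less, by -1.57 ± 0.179 for L and -1.76 ± 0.184 for S. dnal1.L, a light chain bound to an outer arm heavy chain, was at 7.62 and 4.65 CPM against 27.7 and 30.7 CPM.

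The 5 radial spoke genes were all lower and lay close together, between -2.62 and -2.38. rsph6a.L was at 32.1 and 37.5 CPM in the Ptf1a caps and 211 and 217 CPM in the controls (-2.62 ± 0.336, adjusted p = 0.000384 by edgeR). rsph10b.S (-2.60 ± 0.313) and the spoke head gene rsph9.L (-2.59 ± 0.303) were lower by nearly the same amount. rsph3.L, a spoke stalk gene, had the weakest evidence with -2.42 ± 0.670 and an adjusted p of 0.0239.

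Among the tektins 5 of 7 were lower. tekt2.S was at 49.1 and 47.4 CPM in the Ptf1a caps against 259 and 278 CPM (-2.48 ± 0.301, adjusted p = 0.0003 by edgeR). tekt2.L, with 10.3 and 8.29 CPM against 44.6 and 41.9 CPM, was not called (-2.22 ± 1.16, adjusted p = 0.211). tekt3.S, at 31.6 and 13.9 CPM against 53.9 and 52.8 CPM, was not called either (-1.23 ± 0.441, adjusted p = 0.0695). tcte1.L (-2.59 ± 0.605, adjusted p = 0.0114) and lrrc34.L (-2.35 ± 0.464, adjusted p = 0.00483) were lower.

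The counts of calls with Ptf1a at 25 h held when any library was left out. Between 25 and 27 genes were then lower, and 25 were lower each time. With total-count scaling the median of all genes moved from 0.08 to 0.46 and that of the 39 from -2.29 to -1.88, and 29 were lower. With the replicate number as a block within each time, 33 were lower, while the number over all tested genes went from 2619 to 4994. The block added dnah6.S (adjusted p = 0.00993 by edgeR), dnah14.L (0.00109) and tekt2.L (0.000416). Replicates of these genes differed in the same sense in every 6 h group, which the fit without the block counts as spread. The fit with the block called dnah3.L, dnah11-like.1.S and dnah11-like.2.L higher, with adjusted p of 0.0272, 0.0366 and 0.0381. It called 5875 of all tested genes higher.

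**Figure D3:**
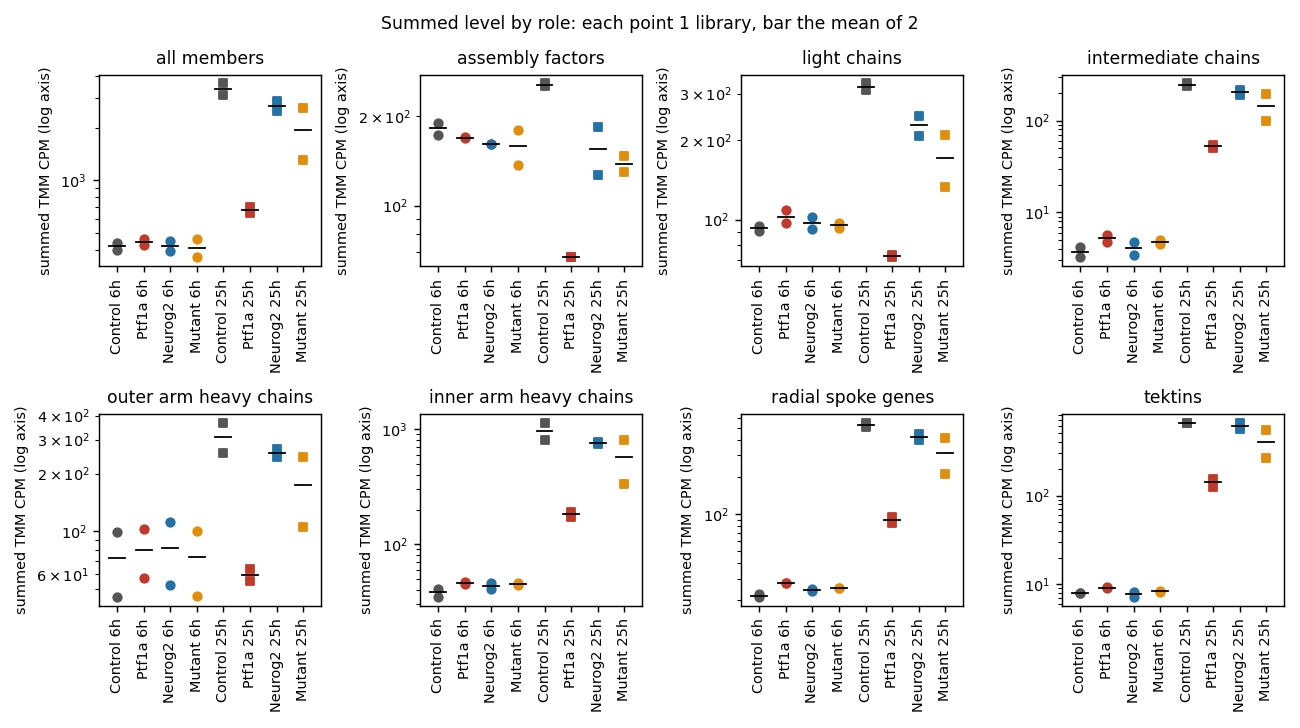
Summed level of the genes by role in each library, in TMM-scaled CPM on a log axis, for 8 groups of 2 libraries. At 25 h the Ptf1a points lie below those of the other groups in the panel of all genes, where they read 651 and 705 CPM, and mutant replicate 1 lies at 1315 CPM, apart from replicate 2 at 2605 CPM.

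Caps with Neurog2 kept most of this RNA at 25 h. The 42 rows summed to 2863 and 2523 CPM, 80.2% of the control mean. Of the 39 tested genes, 0 were higher and 0 lower by edgeR, where 2.98% of all tested genes were higher and 0.105% lower (3.08% either way). Unadjusted p was under 0.05 for 9 of the 39 and for 3685 of all 30384 tested genes. DESeq2 called 7 lower and 0 higher, where it called 335 of all tested genes lower and 1501 higher. The median of the 39 was -0.35, against -0.02 over all genes, and 33 of 39 had a log2 fold change below 0.

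The assembly factors and dnal4 came nearest to a call with Neurog2. The summed assembly factors were at 60.9% of the control mean, whereas the summed tektins were at 92.8%; this contrast between roles was not tested. dnaaf2.L was at 44.0 and 27.3 CPM against 62.7 and 61.3 CPM (-0.80 ± 0.235, adjusted p = 0.109 by edgeR). dnal4.L was at 48.0 and 43.1 CPM against 70.1 and 75.6 CPM (-0.68 ± 0.175, adjusted p = 0.0622). With the block within each time, dnal4.L, dnal4.S, dnaaf2.L, dnaaf5.L and dnaaf5.S were lower, with adjusted p of 0.0177, 0.0298, 0.0216, 0.0446 and 0.0434, and dnah3.L and dnah11-like.2.L were higher, with 0.0179 and 0.0399, while that fit called 441 of all tested genes lower and 1716 higher. Without Neurog2 replicate 1 the count was 3 lower. tekt3.S and tekt3.L lay above the control with no call, at 77.0 and 75.2 CPM against 53.9 and 52.8 CPM for the S copy (0.51 ± 0.436, adjusted p = 0.787).

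The 2 libraries of the mutant caps differed from each other at 25 h more than those of the other 3 groups, by the median over the 39 genes. Their 42 rows summed to 1315 CPM in replicate 1 and 2605 CPM in replicate 2. The ratio of replicate 2 to replicate 1 had a median of 1.93 over the 39 genes, and 35 were higher in replicate 2. In the other 25 h groups this median was 0.854 to 1.07. Relative to the control mean, the median gene stood at 40.6% in replicate 1 and 77.2% in replicate 2, beside 23.1 and 19.0% in the Ptf1a libraries and 82.0 and 75.1% in the Neurog2 libraries. Markers of neurons summed to 815 CPM in mutant replicate 1 and 192 CPM in replicate 2, and their part in this difference was not tested.

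Against the control, the mutant lowered 2 of the 39 genes and raised 0, where 0.0329% of all tested genes were lower and 0.803% higher (0.836% either way). Both were copies of dnal4. dnal4.S was at 25.8 and 33.0 CPM against 57.4 and 61.7 CPM (-1.02 ± 0.181, adjusted p = 0.0293 by edgeR). dnal4.L was at 31.7 and 42.0 CPM against 70.1 and 75.6 CPM (-0.98 ± 0.176, adjusted p = 0.0303). The median of the 39 was -0.77, against 0.01 over all genes, and 36 of 39 lay below 0.

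This count rested on single libraries. It was 12 without mutant replicate 2 and 0 without mutant replicate 1 or either control replicate. The number lower over all tested genes also moved with the library left out. The median of the 39 was -0.37 without mutant replicate 1 and -1.29 without replicate 2. With the block within each time, 6 were lower, against 193 of all tested genes, with dnaaf1.S (-0.96, adjusted p = 0.0286), dnaaf3.L (-0.99, 0.0239), dnaaf2.L (-0.81, 0.0424) and dnaaf5.S (-0.82, 0.041) added to the dnal4 copies.

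Ptf1a caps were also lower than the mutant caps, which carry the same protein with changed tryptophans. At 25 h, 21 of 39 genes were lower and 0 higher, where 3.81% of all tested genes were lower and 4.4% higher (8.22% either way). The median of the 39 was -1.43, against 0.03 over all genes. dnah1.L was at 22.9 and 22.1 CPM with Ptf1a and at 50.1 and 122 CPM with the mutant (-1.94 ± 0.350, adjusted p = 0.00728 by edgeR). rsph9.L changed by -1.90 ± 0.296, dnali1.S by -1.88 ± 0.246, rsph6a.L by -1.84, dnah12.L by -1.83 and tekt1.L by -1.80 ± 0.279. For each of the genes named, no library of either group overlapped the other, which is weak evidence with 2 libraries a group. This held for 33 of the 39, and the share over all tested genes was not counted.

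The number lower than the mutant moved with the library left out. It was 4 without mutant replicate 2, 5 without Ptf1a replicate 1, 12 without Ptf1a replicate 2 and 21 without mutant replicate 1. dnaaf1.S, dnali1.S, rsph9.L and tekt1.L were lower every time. With the block within each time, 31 were lower, while the number over all tested genes went from 1159 to 3696. The genes not called in the fit without the block but called with it were dnah2.L, dnah9.S, dnah14.L, rsph3.L, tekt1.S, tekt2.L, tcte1.L, lrrc34.L, dnal4.L and dnaaf2.L, with adjusted p between 0.000738 and 0.0199.

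Against Neurog2, Ptf1a lowered 27 of 39 genes and raised 0, where 4.19% of all tested genes were lower and 5.13% higher (9.32% either way). The median of the 39 was -1.97, against 0.01 over all genes. The largest falls were those of dnah1.L (-2.36 ± 0.355), dnali1.S (-2.34 ± 0.25), tekt3.L (-2.32 ± 0.323) and tcte1.L (-2.31 ± 0.598, adjusted p = 0.0347 by edgeR), then rsph6a.L (-2.28) and rsph9.L (-2.26). tekt3.S, which was not called against the control, was lower here, at 31.6 and 13.9 CPM against 77.0 and 75.2 CPM (-1.74 ± 0.447, adjusted p = 0.0304). Without single libraries the count was 18 to 24, and 16 were lower every time. With the block within each time it was 34, while the number over all tested genes went from 1273 to 3635.

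These comparisons share the Ptf1a libraries, and those with the control share the control libraries. Between the mutant and Neurog2, 0 of 39 were called at 25 h by edgeR, where 0.00987% of all tested genes were called. DESeq2 also called 0 of 39, where it called 30 of all tested genes higher and 86 lower. In that comparison 2 of the 39 had an unadjusted p under 0.05, where 1303 of all 30384 tested genes did. The median was -0.44, against 0.02 over all genes, and 38 of 39 lay below 0. This rested on mutant replicate 1: without it the median was -0.07 and 13 of the 39 signs changed, and without replicate 2 the median was -0.98.

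At 6 h none of these genes was called in any of the injected caps. With Ptf1a 0 of 39 were called, where 0.902% of all tested genes were. With Neurog2 it was 0 of 39, against 0.25% of all genes, and with the mutant 0 of 39, against 0.606%. In this order, unadjusted p was under 0.05 for 6, 4 and 5 of the 39. It was under 0.05 for 2137, 1194 and 1981 of all 30384 tested genes. DESeq2 called 2, 0 and 3 higher, where it called 484, 191 and 451 of all tested genes higher. The medians of the 39 were 0.24, 0.13 and 0.17, against 0.15, 0.01 and 0.03 over all genes.

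Those closest to a call at 6 h were genes that the control caps hardly expressed yet. tekt2.S stood at 0.430 and 0.553 CPM in Ptf1a caps, 0.330 and 0.480 CPM in Neurog2 caps and 0.597 and 0.422 CPM in mutant caps, each above the control at 0.129 and 0.0933 CPM. Its log2 fold change was 2.09 ± 0.449 with Ptf1a (adjusted p = 0.0566 by edgeR) and 2.16 ± 0.458 with the mutant (adjusted p = 0.0652). dnai2.S (9_10S, 21487235 to 21524301, minus strand), an outer arm intermediate chain whose model shares exon sequence with ttyh2.S, was at 2.01 and 2.36 CPM with Ptf1a and 2.71 and 2.04 CPM with the mutant against 0.900 and 0.933 CPM. It was not called (adjusted p = 0.120 and 0.0919), but with the block within each time it was higher with Ptf1a (1.26, adjusted p = 0.024) and with the mutant (1.37, adjusted p = 0.0203).

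tcte1.L had 53 and 37 reads in the Ptf1a libraries of 6 h and 0 in both controls. It had 16 and 0 reads in the Neurog2 libraries and 20 and 6 in those of the mutant. The Ptf1a libraries were the deepest of 6 h, so raw reads cannot be compared between groups. In CPM tcte1.L stood at 0.211 and 0.301 with Ptf1a, 0.240 and 0 with Neurog2 and 0.199 and 0.0745 with the mutant. Set against 3 counts in all for the controls, the pooled and scaled counts of tcte1.L with Ptf1a were 8.43-fold higher. That figure leaves out error in the Ptf1a counts and the spread between libraries. The gene was not called (adjusted p = 0.0983 by edgeR). lrrc34.L had 24 and 6 reads in the Ptf1a libraries, 0 and 2 in those of Neurog2 and 10 and 2 in those of the mutant. In CPM lrrc34.L was at 0.0955 and 0.0488 with Ptf1a and at 0.0996 and 0.0248 with the mutant, which overlap. With Neurog2 lrrc34.L was at 0 and 0.0480 CPM.

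The effect of Ptf1a differed between the times. An interaction test, added after the data were seen, compared the Ptf1a effect at 25 h with that at 6 h and found it lower for 25 of 39 genes and higher for 0, where 9.81% of all tested genes were called. For dnali1.S the log2 fold change against the control was 0.66 at 6 h and -2.69 at 25 h, a difference of -3.35 ± 0.349 (adjusted p = 0.000436 by edgeR). The same test called 0 of 39 genes for Neurog2 and 0 for the mutant, where 0.296 and 0.194% of all genes were called.

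Within the injected groups most of these genes still rose from 6 h to 25 h. With Ptf1a 26 of 39 rose and 8 fell, where 28.7% of all genes rose and 29.8% fell, and the median of the 39 was 1.93 against -0.06. With Neurog2 28 rose and 4 fell (30.7 and 29.7% of all genes, median 3.97 against 0.01), and with the mutant 28 rose and 5 fell (28.6 and 30.7% of all genes, median 3.6 against -0.15). The 5 were 3 without the 6 h mutant replicate 2. tekt3.S rose most in the Ptf1a caps, by a log2 fold change of 9.40 ± 0.675, and tekt1.S (7.22), lrrc34.L (6.67), tekt2.S (6.63), dnah1.L (6.06) and dnah7.L (5.97) followed.

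Of the 8 genes that fell over time in the Ptf1a caps, 7 were among the 9 above 10 CPM in the control caps at 6 h. They were 4 of the 5 assembly factors, both copies of dnal4 and dnah3.L, and the other was dnah11.L. dnaaf1.S was at 36.7 and 37.1 CPM at 6 h and 12.3 and 10.4 CPM at 25 h (-1.70 ± 0.225, adjusted p = 4.48e-05 by edgeR), whereas it rose in the control caps. dnaaf2.L fell by 1.61 ± 0.239 and dnaaf5.L by 1.81 ± 0.259. The summed assembly factors at 25 h, 67.4 and 66.9 CPM, were below their 6 h level in the controls of 190 and 173 CPM. dnah9.S did not change detectably over time with Ptf1a (-0.41 ± 0.575, adjusted p = 0.557).

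Of the 5 assembly factors, 2 fell with time in each of the other injected groups. With Neurog2 dnaaf5.L fell by 1.11 and dnaaf2.L by 0.78, and with the mutant they fell by 1.15 and 0.79. dnah3.L and dnah11.L fell in both groups, by 2.38 and 2.40 with Neurog2 and by 2.86 and 2.61 with the mutant. dnal4.S fell with the mutant by 0.45, with an adjusted p of 0.0478 by edgeR.

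The L and S rows of dnah3 behaved in opposite ways. dnah3 is an inner arm heavy chain. dnah3.L lies on chromosome 3L (43758269 to 44312720, plus strand) and dnah3.S on chromosome 9_10S (90834193 to 91005227, plus strand), so their positions are not those of an L and S pair, although the names pair them. dnah3.L was at 18.7 and 21.5 CPM in the control caps at 6 h and 3.04 and 1.83 CPM at 25 h. dnah3.S was at 3.45 and 2.80 CPM at 6 h and 104 and 134 CPM at 25 h (5.25 ± 0.421, adjusted p = 5.38e-07 by edgeR). At 25 h dnah3.S was at 20.3 and 19.8 CPM with Ptf1a (-2.57 ± 0.369, adjusted p = 0.000689), while dnah3.L was at 4.73 and 2.65 CPM and not called (0.58 ± 0.336, adjusted p = 0.259).

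**Figure D4:**
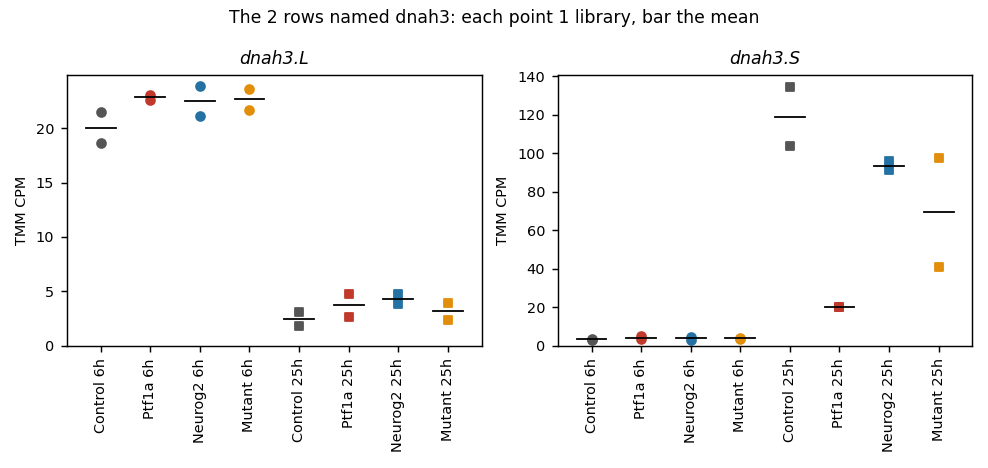
TMM-scaled CPM of dnah3.L and dnah3.S in each library of the 8 groups. dnah3.L lies between 18.7 and 23.8 CPM at 6 h and between 1.83 and 4.78 CPM at 25 h, and dnah3.S rises from below 5 CPM to between 91.2 and 134 CPM in the control and Neurog2 caps at 25 h.

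In the other 5 pairs of copies with both rows tested, L and S had fold changes of the same sign with Ptf1a at 25 h, though tekt3.S and tekt2.L were not called. The log2 fold changes of L and S were -2.06 and -1.23 for tekt3, -1.30 and -1.67 for dnaaf5, -2.22 and -2.48 for tekt2, -1.57 and -1.76 for dnal4 and -2.47 and -2.29 for tekt1. The difference between copies was not tested. Over time in the controls the values of L and S were 4.08 and 11.03 for tekt1, 7.66 and 11.19 for tekt2, 5.50 and 9.11 for tekt3, -0.69 and 0.47 for dnaaf5 and 0.69 and 0.61 for dnal4, so the copies were further apart than with Ptf1a in each of these pairs but dnal4. Reads shared between near-identical copies may have been split or dropped by the counting, which is not stated.

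Several rows carry almost no reads. dnah11-like.2.S, dnah11-like.S and dnali1.L did not pass the filter, and dnali1.L had at most 2 reads in any library. dnah11-like.1.S and dnah11-like.S are short models with 216 and 348 coding bases. dnah11-like.1.S, with 4 and 0 reads in the control caps at 25 h and none at 6 h, was called higher over time, although its groups overlapped. It had 22 and 30 reads with Ptf1a at 25 h, and dnah11-like.2.L had 25 and 20, which were not called against the control (adjusted p = 0.075 and 0.135 by edgeR).

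At 6 h replicates 1 and 2 differed in the same sense in every group for some genes. Of the 39, 11 were higher in replicate 2 than in replicate 1 in all 4 groups, and 7 were lower. The share over all tested genes was not counted. Over all genes the replicate differences correlated at 0.737 to 0.834 between groups at 6 h, so this pattern was not particular to these genes. rsph3.L was at 2.96, 3.38, 3.81 and 2.41 CPM in replicate 1 of the control, Ptf1a, Neurog2 and mutant caps and at 7.93, 9.27, 7.83 and 9.59 CPM in replicate 2. dnah14.L had the opposite pattern, with 2.80, 4.07, 3.48 and 4.27 CPM in replicate 1 and 1.03, 0.853, 0.936 and 0.696 CPM in replicate 2. tekt2.L had 0.359 to 0.526 CPM in replicate 1 and at most 0.0480 CPM in replicate 2.

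**Figure D5:**
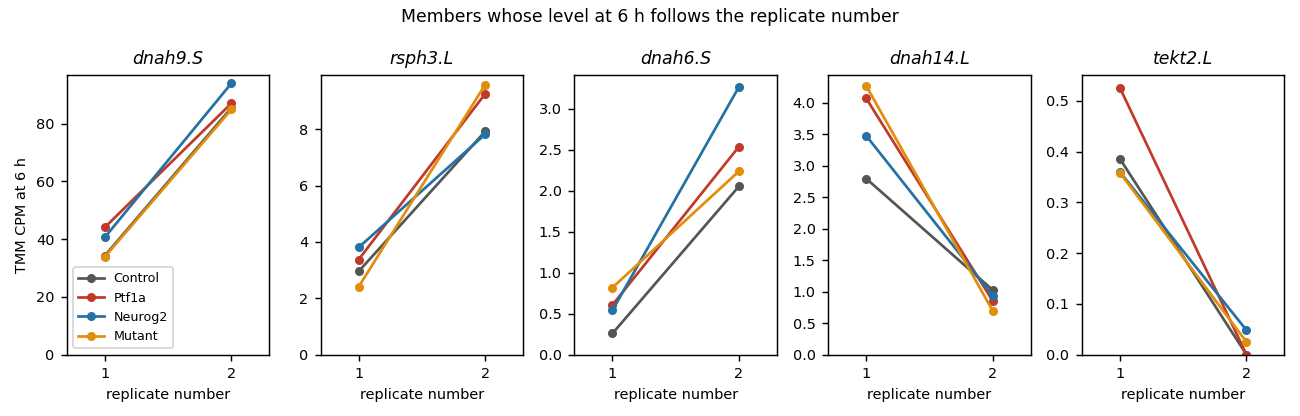
TMM-scaled CPM at 6 h of dnah9.S, rsph3.L, dnah6.S, dnah14.L and tekt2.L in replicates 1 and 2 of the 4 groups. dnah9.S lies between 33.9 and 44.1 CPM in the 4 replicates 1 and between 84.9 and 94.0 CPM in the 4 replicates 2, with rsph3.L and dnah6.S in the same sense and dnah14.L and tekt2.L in the opposite one.

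Other genes of the motile cilium were mostly lower as well. Of 124 tested rows for other cilium genes, 82 were lower and 4 higher with Ptf1a at 25 h, with a median of -2.14. Over all tested genes 8.62% were lower and 11.9% higher, with a median of 0.08. The central pair genes (10 of 11 lower, median -2.45), the outer arm docking genes (6 of 7, -2.34), the ruler and nexin-dynein regulatory genes (12 of 17, -2.39) and proteins of the microtubule lumen and doublet (18 of 20, -2.34) had medians near those of the dyneins and spokes. Genes of other assembly factors were lower in 10 of 12 rows (-2.04) and other spoke genes in 6 of 7. Ciliary kinases and tubulins were lower in 11 of 19 rows and higher in 2, with a median of -1.45. With Neurog2 2 of the 124 were higher and 1 lower, and with the mutant 2 were higher and 0 lower, with medians of -0.36 and -0.75. Over all tested genes 2.98% were higher and 0.105% lower with Neurog2, and 0.803% higher and 0.0329% lower with the mutant. The medians over all genes were -0.02 and 0.01.

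Genes that control ciliogenesis gave a mixed picture. In the class of regulators and centriole amplification genes, 9 of 31 rows were lower and 2 higher with Ptf1a at 25 h, and the median was -0.50. Over all tested genes 8.62% were lower and 11.9% higher. foxj1, the master regulator of motile cilium genes, was lower in both copies: foxj1.S was at 12.4 and 9.87 CPM against 70.2 and 64.7 CPM (-2.60 ± 0.373, adjusted p = 0.000685 by edgeR), and foxj1.L changed by -1.83 ± 0.273. ccno, which is needed for centriole amplification, was lower as well, with ccno.L at 0.553 and 0.175 CPM against 2.71 and 1.43 CPM (-2.53 ± 0.700, adjusted p = 0.0234). rfx2 and myb, transcription factors of ciliated cells, were not called in either copy, with -0.49 and -0.56 for rfx2 and -0.46 and -0.35 for myb. No foxj1, rfx2, myb or ccno row was called with Neurog2 or the mutant at 25 h, where 3.08 and 0.836% of all tested genes were called. At 25 h, 4 of the 31 rows were lower and 2 higher in Ptf1a than in mutant caps. Against Neurog2 caps, 5 were lower and 2 higher. Of all tested genes 3.81 and 4.4%, then 4.19 and 5.13%, were so called. At 6 h, 1 row was higher than in the control caps for Ptf1a, 2 for Neurog2 and 0 for the mutant, with 0 lower. Of all tested genes 0.902, 0.25 and 0.606% were called at 6 h, in this order. The rows called higher are not identified here. The rule found no row by the name mcidas or gmnc.

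Markers of other cells moved at the same time. Of all tested genes at 25 h, 11.9% were higher and 8.62% lower with Ptf1a. These shares were 2.98 and 0.105% with Neurog2 and 0.803 and 0.0329% with the mutant. With Ptf1a at 25 h, all 13 tested neuron marker rows were higher, and their sum was 786 and 743 CPM against 21.3 and 24.5 CPM in the controls, where stmn2.L, ina.L, ina.S and nova2.S had no read. Neurog2 raised 12 of the 13, to a sum of 532 and 2009 CPM, and the mutant raised 9. Ionocyte markers were lower in 9 of 10 rows with Ptf1a (sum 505 and 286 CPM against 1596 and 1282 CPM) and in 0 of 10 with Neurog2 and the mutant. Goblet and epidermis markers were lower in 3 of 15 rows with Ptf1a, and their sum was 53410 and 70540 CPM against 112800 and 128200 CPM. Small secretory cell markers were called in 0 of 4 rows with Ptf1a. Tektins and tcte1 are also known from sperm. Of the sperm list only odf2 and odf3 rows were found, too few to stand for sperm, and these 4 rows were all lower with Ptf1a. The part of these cell types in the lower level of the dynein, spoke and tektin genes was not tested.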

How the data were processed

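Deposited counts were used as they stand: per the labels and the submitters' processing notes, the authors processed reads with CASAVA 1.8, STAR 2.5 and featureCounts, and also name DESeq2 1.8. Strandedness and how multi-mapping reads were treated are not given in the sources used here, so reads of overlapping or antisense models cannot be told apart. Libraries were made from Trizol-extracted total RNA, per the labels.

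Counts were analysed in R 4.3.3 with edgeR 4.0.16. TMM factors and filterByExpr by group left 30384 genes. A robust quasi-likelihood fit with a mean per group used all 16 libraries (8 residual degrees of freedom, common biological coefficient of variation 0.378). In all, 13 comparisons were made, each with Benjamini-Hochberg adjustment over its genes and a threshold of 0.05. Depth was 31.4 to 228.3 in units of 1e6 counts. Floors are 3 counts over the 2 libraries of a group, and where a group is at 0 the fitted fold change rests on the prior count (0.125) and bounds nothing. The genes and lists were chosen with earlier results of these data known. Coordinates come from an annotation of build 9.1.

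Within each role class the copy with the highest mean level was described, with the 6 called genes of largest rise and fall per comparison, genes called against the majority, genes without reads, the L and S pairs, and both copies of 6 cilium regulators. Values of further genes were added after they were seen. Marker lists covered neurons, ionocytes, small secretory cells, goblet cells with epidermis, and sperm.

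Same-numbered replicates deviated together: over all genes, log2 of CPM plus 0.5, the deviations correlated at 0.737 to 0.834 between groups at 6 h, 0.129 to 0.522 at 25 h and 0.111 to 0.224 across times. The pairing comes from this correlation and the labels' replicate numbers. A block on the replicate number, within each time or over both times, was therefore tried, beside DESeq2 1.42.0, its size factors, no filter, summed L and S counts, fits to 1 time only and leaving out each library. The interaction between mRNA and time and the total-count scaling were added after the data were seen. On counts simulated for Ptf1a against the control at 25 h with 30384 genes, the fit recovered 65% of 100 genes raised 4-fold and 50% of 100 genes lowered to 0.25 of their level. Of the 120 genes it called, 5 had not been changed. The simulated libraries were independent and no other gene differed between Ptf1a and control, unlike the real counts. These rates may therefore not carry over.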

Additional observations from a re-analysis of the deposited data

Results flagged for a closer look

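The Ptf1a effect against the control differed between 25 h and 6 h for 25 of the 39 tested genes, by the interaction test in edgeR over all genes, which was added after the data were seen. All values below are the log2 fold change at 25 h minus that at 6 h, and their adjusted p ran from 0.000436 for dnali1.S to 0.0167 for dnaaf2.L. No gene had a positive difference that was called.

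For tcte1.L and lrrc34.L the differences were -9.84 and -7.88. They rest on control libraries with 0 reads at 6 h, so they depend on the prior count and are no measure of size. Of the genes below, tekt2.S, rsph14.L, rsph10b.S, dnah1.L, dnah7.L and dnai2.S were under 1 CPM in the control caps at 6 h. The sizes of their differences rest on those low levels. Among the tektins the difference was -4.56 for tekt2.S, -2.56 for tekt1.L, -2.49 for tekt4.S and -2.30 for tekt3.L. The spoke genes gave -3.07 for rsph14.L, -3.02 for rsph10b.S, -3.01 for rsph9.L and -2.97 for rsph6a.L.

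Inner arm heavy chains gave -3.26 for dnah1.L, -2.96 for dnah3.S, -2.80 for dnah12.L, -2.78 for dnah10.L and -2.72 for dnah7.L. Light chains gave -3.35 for dnali1.S, -2.54 for dnal1.L, -1.88 for dnal4.S and -1.65 for dnal4.L. The intermediate chains gave -3.23 for dnai2.S and -2.47 for dnai1.L. Assembly factors gave -2.65 for dnaaf1.S, -2.37 for dnaaf3.L, -1.48 for dnaaf2.L and -1.45 for dnaaf5.S. Without each library in turn the count was 23 to 26, and 23 genes were called every time.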

How the results depend on the processing

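With 2 libraries a group, single libraries set the smaller counts, and genes at a few reads cannot be resolved. Of the 30 genes called with Ptf1a at 25 h, 25 to 30 stayed called under each alternative. DESeq2's Wald test gave 2 genes higher with Ptf1a at 6 h, 3 higher with the mutant at 6 h, 7 lower with Neurog2 at 25 h and 8 lower with the mutant at 25 h. Over all tested genes these counts were 484, 451, 335 and 210, in this order. Without the filter 1 gene was higher with Ptf1a and 1 with the mutant at 6 h, beside 330 and 228 of all genes. DESeq2's size factors gave 2 lower with Neurog2 at 25 h, beside 61 of all genes. The replicate block over both times gave 1 lower with Neurog2 at 25 h, beside 131 of all genes. The block within each time gave 1 higher with Ptf1a and 1 with the mutant at 6 h, 3 higher with Ptf1a at 25 h, 2 higher and 5 lower with Neurog2 at 25 h, and 6 lower with the mutant at 25 h. It moved no other count by more than 1.5 times. With the 25 h libraries alone, 0 were lower with the mutant. Total-count scaling gave 1 higher with Ptf1a at 25 h, and 7 and 9 lower over time with Neurog2 and the mutant.

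Leaving out single libraries gave 0 to 1 genes higher with the mutant at 6 h, 0 to 3 lower with Neurog2 at 25 h, 0 to 12 lower with the mutant at 25 h, 4 to 21 lower with Ptf1a than with the mutant, 1 to 4 lower over time in the controls and 3 to 4 lower over time with the mutant. The numbers called over all tested genes in these comparisons moved as well. A group left with 1 library is assumed to vary like the others.

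Signs turned as follows, and the cause was not tested unless the construction shows it. Summing L and S counts put dnah3.L under the larger dnah3.S, at -2.34 with Ptf1a, -0.30 with Neurog2, -0.74 with the mutant and 2.40 over time, and put dnaaf5.L at 0.05 over time. Total-count scaling gave 0.06 for dnah11.L with Ptf1a at 25 h, and -0.38 for dnaaf5.S, -0.16 for dnal4.L and -0.25 for dnal4.S over time. The block within each time gave 0.08 for dnaaf2.L over time. Leaving out single libraries at 25 h ran from -0.67 to 0.00 for dnah12.L and from 0.00 to 0.51 for tekt3.L with Neurog2, where the values at 0.00 came without control replicate 2 and without Neurog2 replicate 1. With the mutant it ran from -0.06 to 0.77 for dnah3.L and from -1.35 to 0.11 for tekt3.S, and both signs turned without mutant replicate 1.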
